A study of Mus musculus with 27 samples.

Results

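The step from 0.5 h to 1 h after 3T3-L1 cells were given an adipogenic hormone mixture was described across 19938 genes. It was read from 6 of the 27 arrays of the series, the 3 arrays of vector cells labelled 1 h and the 3 labelled 0.5 h. 3T3-L1 cells are mouse preadipocytes, fibroblast-like cells that become adipocytes on hormonal induction. The cells of both groups carried the empty pMIG vector and had been confluent for 2 days. They were then kept in 10% fetal calf serum with 350 nM insulin, 0.5 mM isobutylmethylxanthine (IBMX), 250 nM dexamethasone and 400 nM biotin. By the labels, only the time in the mixture separated the groups. Vector cells taken before the mixture (0 h) and at 2 h, 4 h and 8 h in it, with 3 arrays at each time, served as reference points. The 0 h arrays carry a separate block of sample numbers from the 0.5 h to 8 h arrays. In comparisons with 0 h, time in the mixture and any difference between these blocks cannot be told apart. The series was built around the transcription factor ISL1, and its ISL1 arrays and its 48 h arrays entered only the estimate of the spread. Each group is described in the series text as a biological triplicate, and all arrays came from 1 cell line. The cultures were bulk samples, in which fewer cells of a type and less RNA per cell cannot be told apart.

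Each part of the mixture acts through its own route. IBMX blocks the breakdown of cyclic AMP (cAMP), which activates CREB, a factor that binds the cAMP response element (CRE) in promoters; dexamethasone activates the glucocorticoid receptor; and insulin with serum drives the MAP kinase cascade and serum response factor. Genes that need no new protein for their induction, the immediate early genes, peak soon after such a stimulus, and their products then act on further genes and on the signals themselves. C/EBPβ and C/EBPδ are induced early in this programme and PPARγ and C/EBPα, which switch on the fat cell genes, come much later.

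Between 0.5 h and 1 h, 718 genes (3.6% of those tested) passed limma's test at an adjusted p of 0.05. Of these, 366 were higher at 1 h (1.84%) and 352 were lower (1.77%). The rises were the larger changes. Their median was 0.53 on the log2 scale against 0.39 for the size of the falls, and 61 genes rose at least 2-fold (0.306%) while 9 fell that far (0.0451%). For 362 of the 366 rises and 351 of the 352 falls, all 3 arrays of 1 time lay beyond all 3 of the other; over all genes this held for 4.68% upward and 8.56% downward. The median difference over all genes was -0.03. The number of falls depended on the arrays and on their scaling. With each array centred on its own median there were 426 rises and 179 falls, so that the share of calls that were rises went from 51.0% to 70.4%. The balance also turned the other way: without the 1 h array 2 there were 300 rises and 366 falls (45.0% rises), and with a replicate block within the 2 groups of the step 392 and 402 (49.4%). The falls numbered 202 without the 1 h array 1, 194 without the 0.5 h array 2 and 205 without the 0.5 h array 3, while the rises numbered 300 to 434 with any 1 of the 6 arrays left out. The 2-fold falls numbered 2 without the 1 h array 1 and 14 without the 1 h array 2.

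**Figure D1:**
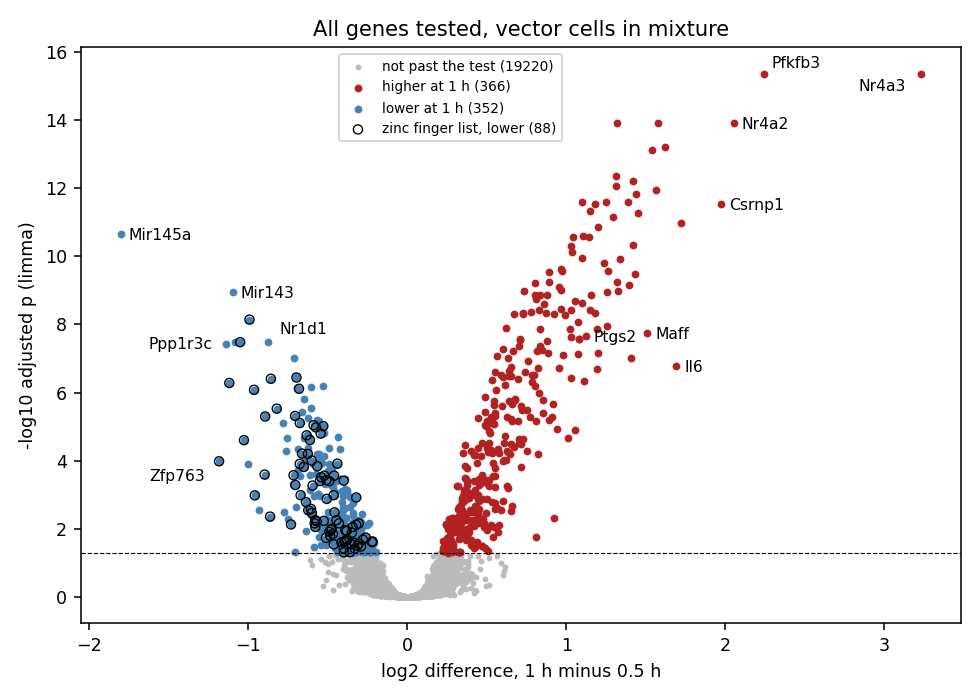
Each point is 1 of the 19938 genes, with the log2 difference between 1 h and 0.5 h (3 arrays each) on the x axis and -log10 of limma's adjusted p on the y axis, where the dashed line marks an adjusted p of 0.05. The right arm, with Nr4a3 at 3.23, reaches farther from 0 than the left arm, where Mir145a at -1.80 is the extreme and 88 circled genes belong to the zinc finger list.

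The largest rise was that of Nr4a3, and its relatives Nr4a2 and Nr4a1 rose as well. The 3 genes encode orphan nuclear receptors that cAMP and growth signals induce rapidly. Nr4a3 read 8.36, 7.94 and 8.60 (log2 intensity) on the 0.5 h arrays and 11.42, 11.61 and 11.56 on the 1 h arrays. The groups were far apart, by 3.23 ± 0.116 (log2 difference ± SE of the fit, 3 against 3 arrays; limma adjusted p = 4.41e-16), a 9.40-fold difference. Nr4a2 read 10.52, 10.17 and 10.55 at 0.5 h and 12.44, 12.43 and 12.53 at 1 h, a rise of 2.06 ± 0.0885. Nr4a1 moved from 13.55, 13.48 and 13.65 to 14.12, 14.09 and 14.13, again with no overlap, a rise of 0.56 ± 0.0639. Set beside the change from 0 h to 0.5 h, which shares the 0.5 h arrays, Nr4a3 had gained 1.60 and Nr4a2 1.02 by 0.5 h, and at 2 h Nr4a3 stood higher still (mean 12.12) while Nr4a2 stood at a mean of 12.05.

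Promoter letters are shown for 4 transcription factor genes that rose, because the mixture acts partly through CREB and serum response factor. The 4 were picked from windows that hold a marked motif. Csrnp1, Nfil3, Foxc2, Klf5 and Myc rose more than Egr2 and are not shown, so the windows do not describe the largest rises. Each window is the 250 bases before a RefSeq start (GRCm38.p6), written 5′ to 3′ on the gene's strand. Capitals mark TGACG, the core of the CRE, or its reverse complement CGTCA in Nr4a3 (chr4:48045055-48045304, plus strand) and Nr4a2 (chr2:57124004-57124253, minus strand), the full palindromic CRE TGACGTCA in Maff (chr15:79347270-79347519, plus strand), and the CArG box, the letters that serum response factor binds, in Egr2 (chr10:67537619-67537868, plus strand).
Nr4a3: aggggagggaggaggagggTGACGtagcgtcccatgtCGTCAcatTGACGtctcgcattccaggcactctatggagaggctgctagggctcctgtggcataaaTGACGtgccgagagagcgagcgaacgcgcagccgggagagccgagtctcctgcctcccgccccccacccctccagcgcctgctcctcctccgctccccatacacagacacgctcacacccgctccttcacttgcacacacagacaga
Nr4a2: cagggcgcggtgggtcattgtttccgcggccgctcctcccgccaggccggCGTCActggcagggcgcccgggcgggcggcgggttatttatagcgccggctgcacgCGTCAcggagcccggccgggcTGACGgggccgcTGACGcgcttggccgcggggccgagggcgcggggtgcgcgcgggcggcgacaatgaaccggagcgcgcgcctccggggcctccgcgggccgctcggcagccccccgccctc
Maff: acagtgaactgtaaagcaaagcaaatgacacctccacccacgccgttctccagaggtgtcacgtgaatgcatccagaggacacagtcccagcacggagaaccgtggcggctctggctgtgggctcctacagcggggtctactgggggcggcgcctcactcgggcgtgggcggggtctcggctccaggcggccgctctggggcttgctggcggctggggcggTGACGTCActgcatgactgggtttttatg
Egr2: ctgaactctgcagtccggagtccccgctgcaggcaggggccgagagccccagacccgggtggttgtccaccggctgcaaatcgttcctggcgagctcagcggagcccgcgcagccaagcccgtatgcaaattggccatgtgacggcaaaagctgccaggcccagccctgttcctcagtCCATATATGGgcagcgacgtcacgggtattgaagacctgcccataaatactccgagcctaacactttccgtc
The Nr4a3 and Nr4a2 windows held 4 core matches each. Capitals mark 1 motif per gene, and the Egr2 window also held TGACG and its reverse complement CGTCA, left in lower case. A match is a run of letters and not a measured site. The RefSeq table gave 19177 promoter windows for 15614 of the genes tested. Windows of 250 bases with TGACG on either strand made up 21.4% of all these promoters, 37.9% of the 375 promoters of genes that rose, 50.8% of the 63 promoters of genes that rose at least 2-fold and 24.4% of the 356 promoters of genes that fell. Among the promoters of the zinc finger genes that fell the share was 31.5%, with the lowest median GC content of these sets, 53.2%. The full CRE, which contains the core, was present in 2.02% of all promoters, 4.27% of those of rising genes, 3.17% of those of genes that rose at least 2-fold, 2.53% of those of falling genes and 3.26% of those of falling zinc finger genes. The CArG box was found in 1.26% of all, 3.73% of rising and 1.4% of falling promoters, the AP-1 site TGACTCA in 4.03%, 5.87% and 1.69% of the same sets, and the NF-kB site in 8.19%, 12.0% and 8.99%. Base composition moved with the set. The median GC content was 56.8% over all promoters, 62.4% for rising genes, 64.8% for genes that rose at least 2-fold and 56.8% for falling genes, and the part of GC content in the motif shares was not tested. Genes with several starts contribute several overlapping windows, and Egr2 alone supplied 4 of the 5 windows with a CArG box among the 2-fold rises.

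Most immediate early transcription factors rose. Of 29 measured members, 19 were higher at 1 h and 1 was lower, where over all genes 1.84% were higher and 1.77% lower. The median difference was 0.59 against -0.03 over all genes. Many lists had a median level above the 8.27 of all genes, such as 11.33 for the cAMP targets. In a fit of the 9969 genes above the median level, 418 rose and 395 fell (3.96%), so calls were more frequent among bright genes. Csrnp1, which encodes a cysteine and serine rich nuclear protein, read 9.76, 9.55 and 10.00 at 0.5 h and 11.69, 11.79 and 11.76 at 1 h (1.98 ± 0.114). Maff, a small Maf protein that pairs with other leucine zipper factors, read 8.13, 8.12 and 8.20 and then 9.44, 9.80 and 9.74 (1.51 ± 0.139). Neither pair of groups overlapped, as the choice of these genes required. Myc, the growth and cell cycle regulator, rose by 1.39 ± 0.0787 from 10.95, 11.02 and 11.19 to 12.39, 12.47 and 12.47. Egr2, an early growth response factor known to act ahead of C/EBPβ in adipogenesis, rose from 10.99, 10.73 and 11.21 to 12.09, 12.34 and 12.29 (1.26 ± 0.113). Both genes had already gained before 0.5 h, Myc by 1.54 and Egr2 by 3.22.

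The Fos and Jun relatives, which pair to form AP-1, differed among themselves. Fosl1 went from 9.01, 9.11 and 9.24 to 10.42, 10.31 and 10.42 (1.26 ± 0.0918), and Fosl2 rose by 1.20 ± 0.0747, Fosb by 0.83 ± 0.0959, Atf3 by 0.98 ± 0.0982 and Jun by 0.28 ± 0.0603, all with limma adjusted p-values of 0.00474 or less. Fos itself read 12.11, 11.95 and 12.04 at 0.5 h and 11.71, 11.88 and 11.63 at 1 h. Its 1 h arrays all lay below its 0.5 h arrays, but the difference of -0.30 ± 0.103 missed the threshold (limma adjusted p = 0.154). Fos had been 4.39 above its 0 h level at 0.5 h. Other genes of the earliest response likewise gave no call in the step. The differences were 0.11 for Egr1, -0.26 for Ier2, 0.01 for Btg2, -0.13 for Zfp36, 0.22 for Dusp1 and 0.30 for Junb, with limma adjusted p-values of 0.0611 or more, and each of these genes had been at least 2.46 above 0 h at 0.5 h (these 6 genes were chosen after their values were seen). The remaining rises of the list were Ier3, Mafk, Klf4, Egr3, Ier5l, Srf and Klf6, between 0.28 and 1.29, and with the replicate block Klf6 missed the threshold (limma adjusted p = 0.0537). Klf10, a Krüppel-like factor induced by TGF-beta, was the 1 member that fell, by 0.57 from 9.88, 10.06 and 9.96 to 9.24, 9.48 and 9.47.

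**Figure D2:**
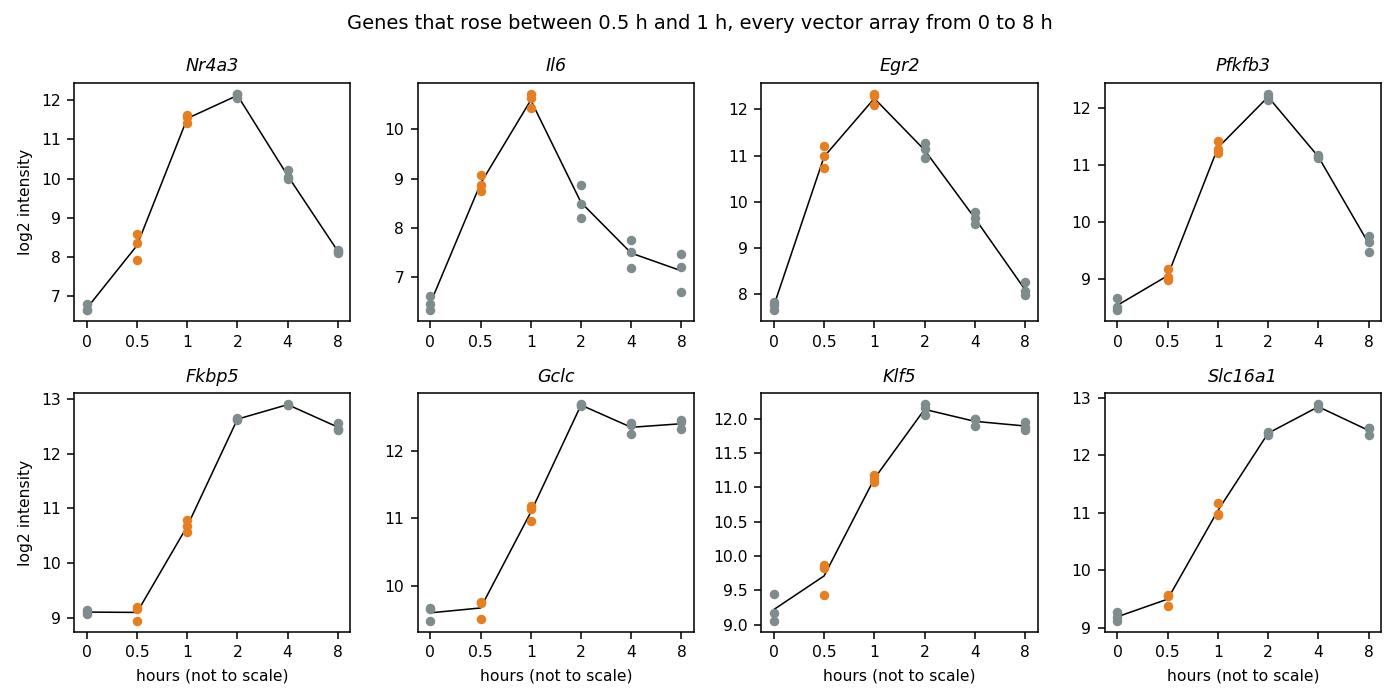
Each panel shows 1 gene that rose between 0.5 h and 1 h, with every vector array from 0 h to 8 h as a point (log2 intensity; orange for 0.5 h and 1 h), a line through the means of 3 arrays, and hours spaced evenly rather than to scale. Il6 and Egr2 are highest at 1 h and lower at 2 h, whereas Fkbp5, Gclc, Klf5, Slc16a1 and Pfkfb3 stand higher at 2 h than at 1 h.

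Among MAP kinase phosphatases and Sprouty feedback genes, 6 of 17 were higher and 0 lower (median 0.20), against 1.84% and 1.77% over all genes. Spry4 and Spry2, Sprouty inhibitors of receptor tyrosine kinase signalling, rose by 1.08 ± 0.101 and 0.75 ± 0.112. Dusp5, a nuclear phosphatase of ERK, went from 11.47, 11.40 and 11.47 to 12.13, 12.23 and 12.17 (0.73 ± 0.062). The other 3 were Dusp10, Errfi1 and Dusp6, at 0.32 to 0.40, and with the replicate block Dusp6 missed the threshold (limma adjusted p = 0.0556). Of 13 RNA decay factors and growth brakes, 8 were higher and 0 lower (median 0.33). Gadd45b, a stress-induced growth arrest gene, rose by 1.32 ± 0.0994, Tob2, an anti-proliferative partner of the mRNA deadenylase, by 0.88 ± 0.0832, and Gadd45g by 0.60 ± 0.0945. The other 5 were Zc3h12a (Regnase-1, an mRNA endonuclease), Gadd45a, Zc3h12c, Zfp36l1 and Btg1. This list's count was 5 without the 0.5 h array 2.

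Of 27 measured cAMP targets, 14 were higher and 0 were lower, with a median of 0.33, where over all genes 1.84% were higher and 1.77% lower. Besides the Nr4a genes, Nfil3, a basic leucine zipper repressor, rose from 10.29, 10.09 and 10.36 to 11.76, 11.87 and 11.97 (1.62 ± 0.0755), and Hbegf, Ptgs2, Irs2, Fosb and Per1 are described with their own groups. Sik1, a kinase that restrains CREB coactivators, rose by 0.67 ± 0.0575, Gem, a small GTPase, by 0.76 ± 0.0778, and Rgs2, a brake on G protein signals, by 0.55 ± 0.0591. Rgs2 read 12.80, 12.66 and 12.74 and then 13.26, 13.33 and 13.26, so that its groups were clearly apart although the change was modest. Pde4d, a phosphodiesterase that breaks down cAMP, and Bdnf rose by 0.33 and 0.30.

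Glucocorticoid targets mostly rose. Of 26 measured, 15 were higher and 1 was lower, with a median of 0.43, against 1.84% and 1.77% over all genes. Fkbp5, a co-chaperone of the glucocorticoid receptor and among its best known targets, read 8.94, 9.15 and 9.20 at 0.5 h and 10.56, 10.68 and 10.79 at 1 h. The rise of 1.58 ± 0.0675 (limma adjusted p = 1.23e-14) followed a change of -0.01 from 0 h to 0.5 h, and the mean reached 12.63 at 2 h. Glul, glutamine synthetase, rose by 1.18 ± 0.0675 from 10.28, 10.45 and 10.46 to 11.54, 11.55 and 11.63. Ddit4, an inhibitor of mTORC1, rose by 0.97 ± 0.0698, and had already been 0.92 above 0 h at 0.5 h. The other rises included Pdk4, which restrains pyruvate oxidation (0.80), Klf9 (0.66), Lcn2, the lipocalin that rose late in the series (0.65, with means of 7.92 at 0 h and 13.14 at 8 h), Tsc22d3, which encodes GILZ (0.51), and Sgk1 (0.49). Angptl4, an inhibitor of lipoprotein lipase, was the 1 member that fell, by 0.32 from 9.78, 9.89 and 9.85 to 9.41, 9.55 and 9.60, and its call ended in 11 of 17 alternative settings, the replicate block among them (limma adjusted p = 0.0638). Per1, Mt1 and Mt2, also on this list, are described with other groups.

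**Figure D3:**
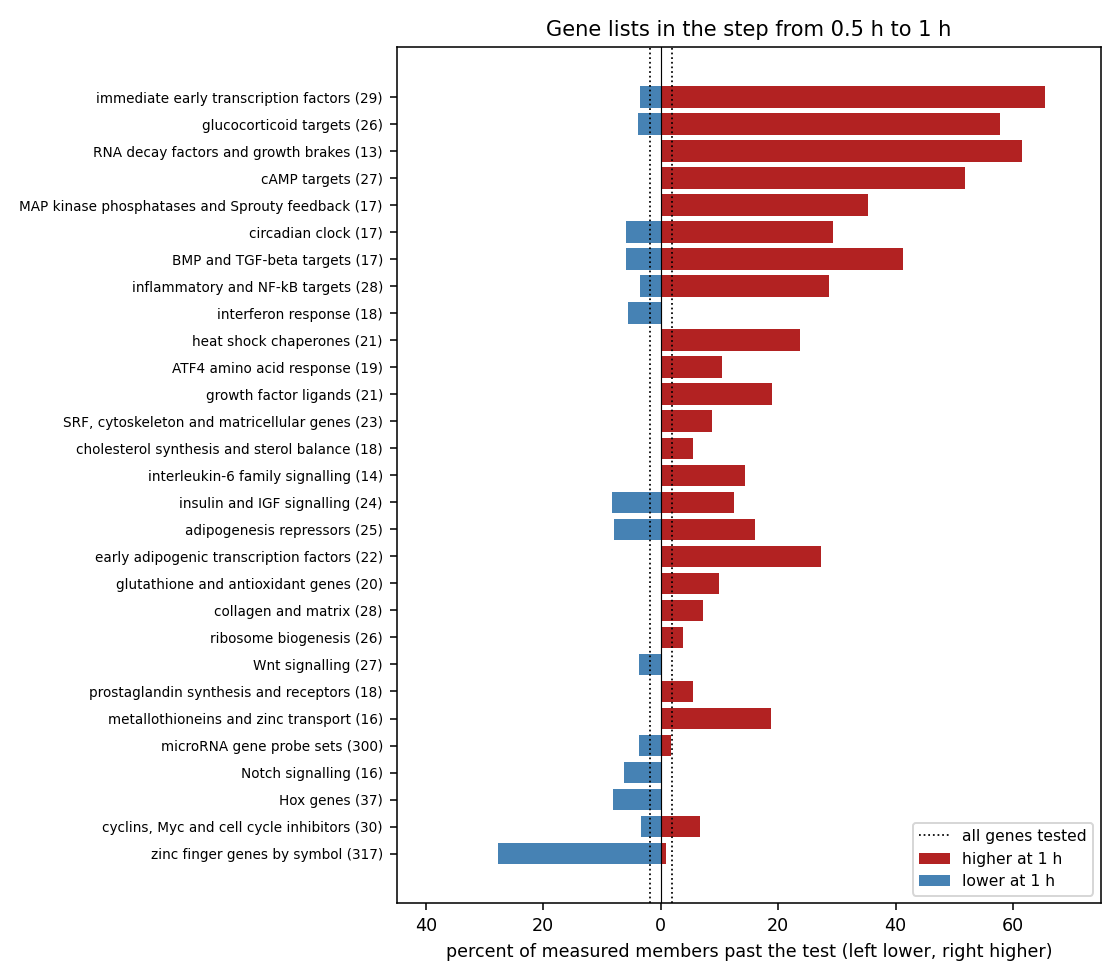
Bars give the percent of measured members of each gene list (number measured in parentheses) that were higher at 1 h (right) or lower at 1 h (left) by limma's test, with lists ordered by their median difference and dotted lines at 1.84% and 1.77%, the shares over all genes. Immediate early factors have 65.5% of members higher, and the zinc finger list has 27.8% lower.

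Pfkfb3, whose product makes fructose 2,6-bisphosphate and so speeds glycolysis, was the largest rise after Nr4a3. It read 9.04, 8.98 and 9.18 at 0.5 h and 11.29, 11.21 and 11.42 at 1 h (2.24 ± 0.0806, a 4.73-fold difference; limma adjusted p = 4.41e-16). Slc16a1, a lactate and monocarboxylate carrier, went from 9.37, 9.55 and 9.57 to 10.96, 10.98 and 11.17 (1.54 ± 0.0727). Hk2, a hexokinase that traps glucose in the cell, rose by 1.15 ± 0.0966 (chosen after its values were seen). Coq10b, a coenzyme Q binding protein of mitochondria, rose by 1.72 ± 0.106. Gclc, the catalytic subunit of the enzyme that limits glutathione synthesis, read 9.51, 9.76 and 9.75 and then 11.13, 10.96 and 11.18 (1.42 ± 0.0739). Gclc had changed by 0.07 from 0 h to 0.5 h, Slc16a1 by 0.31, Pfkfb3 by 0.52 and Coq10b by 0.96.

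The other large rises were of mixed function. Itpkc, a kinase of inositol trisphosphate, rose by 1.56 ± 0.0845 after a change of 0.13 from 0 h to 0.5 h. Rabgef1, an exchange factor for Rab5, rose by 1.45 ± 0.0861 after 0.18. Pim1, a serine/threonine kinase downstream of cytokine signals, rose by 1.43 ± 0.105, and Grasp, a scaffold protein, by 1.34 ± 0.0931. Ctla2a, a cysteine protease inhibitor, rose by 1.41 ± 0.142 from 8.71, 8.81 and 9.06 to 10.12, 10.30 and 10.38. Ctla2a has a close paralog, Ctla2b, and whether its probes also read that transcript was not tested.

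Inflammatory and NF-kB targets gave 8 rises and 1 fall among 28 measured (median 0.06), where over all genes 1.84% rose and 1.77% fell. Il6, the cytokine interleukin-6, read 8.88, 8.74 and 9.07 at 0.5 h and 10.42, 10.72 and 10.63 at 1 h, a 3.23-fold difference (1.69 ± 0.176). Il6 then stood at a mean of 8.52 at 2 h. Ptgs2, the inducible cyclooxygenase, rose from 12.90, 12.67 and 13.00 to 13.95, 13.97 and 14.02 (1.12 ± 0.104) after a gain of 4.34 by 0.5 h. It was the 1 call among 18 prostaglandin genes. The inhibitors of the pathway were among the rises: Nfkbia (0.68 ± 0.0806), which holds NF-kB in the cytoplasm, Tnfaip3 (0.54 ± 0.0851), the A20 ubiquitin editor, and Nfkbie (0.41), with the subunit gene Rel at 0.60 ± 0.116. Birc3 and Tnfaip2 completed the rises. The chemokine Cxcl1, 2.49 above 0 h at 0.5 h, differed by -0.27 ± 0.126 (limma adjusted p = 0.423; chosen after its values were seen). Irf1, an interferon regulatory factor, fell from 9.32, 9.56 and 9.59 to 8.54, 8.88 and 8.78 (-0.75 ± 0.106) and stood at a mean of 7.54 at 2 h. Over the 17 alternative settings the difference of Irf1 ranged from -0.84 to -0.40, and from -0.84 to -0.66 with 1 array left out. Of 14 genes of interleukin-6 family signalling, Lif was the other rise (0.58 ± 0.131), and its call ended in 3 of 17 settings.

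Among growth factor ligands 4 of 21 rose and 0 fell, where over all genes 1.84% rose and 1.77% fell. Hbegf and Ereg, both ligands of the EGF receptor family, led them. Hbegf went from 9.20, 9.06 and 9.37 to 10.42, 10.73 and 10.65 (1.39 ± 0.107) and Ereg from 9.37, 9.48 and 9.60 to 10.49, 10.80 and 10.70 (1.18 ± 0.101). Vegfa rose by 0.63 ± 0.0641, and Bdnf was the last of the 4.

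Of the 22 early adipogenic transcription factors, 6 rose and 0 fell, and the median of the list was 0.02. Cebpb, which encodes C/EBPβ, read 10.74, 10.51 and 10.78 at 0.5 h and 11.64, 11.64 and 11.73 at 1 h (0.99 ± 0.0855; limma adjusted p = 5.43e-09). Its partner Cebpd read 10.82, 10.75 and 10.78 and then 10.85, 11.01 and 11.02, a difference of 0.17 ± 0.086 that missed the threshold (limma adjusted p = 0.513). Cebpd had gained 2.39 and Cebpb 1.54 by 0.5 h. Klf5, a factor that acts with C/EBPβ and C/EBPδ on Pparg, rose by 1.42 ± 0.0941 from 9.87, 9.42 and 9.83 to 11.08, 11.12 and 11.18, and Klf4 rose by 0.81 ± 0.08. Pparg (0.03 ± 0.0603), Cebpa (-0.16 ± 0.101), Isl1 (0.12 ± 0.107) and Bmp4 (-0.17 ± 0.104) gave no call, with limma adjusted p-values of 0.705 or more. Bmp4 was to fall to a mean of 9.73 at 2 h from 11.61, 11.88 and 11.94 at 0.5 h, while its 1 h arrays read 11.57, 11.73 and 11.63. By limma 3.6% of all genes passed the test in the step. None of the 18 fat cell markers did (0 of 18, median -0.06, and -0.18 to 0.01 with 1 array left out). At an unadjusted p under 0.05 there were 5, 1 of them higher, and with the 1 h array 1 left out 1 passed the adjusted test.

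Repressors of adipogenesis moved in both directions, with 4 of 25 higher and 2 lower. Foxc2, a forkhead factor, rose from 10.52, 10.40 and 10.71 to 11.96, 12.02 and 11.95 (1.44 ± 0.079), and Twist2, Sox9 and Snai1 rose by 0.27 to 0.47. Klf3, a Krüppel-like repressor, and Nr2f2, the orphan receptor COUP-TFII, each fell by 0.39. The count of falls was 1 without the 0.5 h array 2 and 1 without the 1 h array 1. Targets of BMP and TGF-beta gave 7 rises and 1 fall among 17, with a median of 0.09. Skil (0.81 ± 0.105) and Smad7 (0.70 ± 0.0677) encode feedback inhibitors of SMAD signalling, and Id1 (0.66 ± 0.0846), Id2, Id3 and Id4 encode inhibitors of basic helix-loop-helix factors. Skil read 8.18, 8.28 and 8.21 and then 8.86, 9.13 and 9.10, after a change of 0.10 from 0 h to 0.5 h. Bambi, a decoy receptor, rose by 0.50 ± 0.0735. Atoh8 fell by 0.28, a call that ended in 9 of 17 settings. No BMP ligand or receptor passed the test in the step (limma, 0 of 17, and 0 at an unadjusted p under 0.05). Over all genes 3.6% passed, and 10.3% had an unadjusted p under 0.05.

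Insulin signalling genes gave 3 rises and 2 falls among 24, where over all genes 1.84% rose and 1.77% fell. Irs2, an adaptor of the insulin receptor, rose from 10.23, 9.97 and 10.17 to 11.17, 11.23 and 11.28 (1.10 ± 0.0903). The other adaptor gene, Irs1, went from 11.76, 11.69 and 11.81 to 11.30, 11.47 and 11.40, a fall of 0.36. Its call ended in 6 of 17 settings, the mean of all probe sets of a gene among them. At 2 h, on arrays that the step does not use, Irs2 differed from its 0 h level by 2.44 and Irs1 by -2.45. Trib1, a pseudokinase that binds a ubiquitin ligase, rose by 1.10 ± 0.0708. Pik3r1 rose by 0.27 and Trib2 fell by 0.25, a call lost with the replicate block (limma adjusted p = 0.054).

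Stress protection genes rose in small numbers, where over all genes 1.84% rose and 1.77% fell. Of 21 heat shock chaperones 5 rose and 0 fell, led by Bag3, a cofactor of HSP70 in protein clearance, which read 11.10, 11.12 and 11.07 and then 12.15, 12.16 and 12.26 (1.10 ± 0.0623) after a change of 0.05 by 0.5 h. Dnajb1 and Dnajb4, cofactors of the same chaperone, rose by 0.72 and 0.60, and Hspb1 and Hsph1 by 0.45 and 0.34. Besides Gclc, 1 of 20 antioxidant genes rose, Srxn1, a reductase of oxidised peroxiredoxin (0.83 ± 0.0753, after -0.01 by 0.5 h). Of 16 genes of metallothioneins and zinc transport 3 rose: Slc39a14, a zinc and iron importer (0.86 ± 0.0705, after 0.08), Mt1 (0.81 ± 0.0611) and Mt2 (0.80 ± 0.0859). Mt1 and Mt2 are similar in sequence, and shared binding of their probes was not tested.

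The circadian clock list had 5 rises and 1 fall among 17, where over all genes 1.84% rose and 1.77% fell. Per1, a core repressor of the clock that cAMP and glucocorticoids both induce, rose from 11.31, 11.20 and 11.30 to 12.02, 12.09 and 12.13 (0.81 ± 0.0652). Nfil3, Cry2, Bhlhe40 and Bhlhe41, which also encode repressors, rose by 0.59 to 1.62. Nr1d1, which encodes REV-ERBα, went the other way, from 11.80, 11.85 and 11.82 to 10.70, 11.17 and 10.97 (-0.88 ± 0.0833; limma adjusted p = 3.29e-08). Nr1d1 had differed by 0.01 between 0 h and 0.5 h, and its mean at 2 h was 9.59.

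In the remaining lists few members passed, where over all genes 1.84% were higher and 1.77% lower. Lists with 1 call are described gene by gene, and such a call is no result about its list. Cyclins, Myc and cell cycle inhibitors gave 2 rises of 30, Myc and Ccnl1 (0.92 ± 0.0789), and 1 fall, that of Cdc25a, the phosphatase that activates cyclin-dependent kinases, from 9.74, 10.06 and 9.85 to 9.10, 9.51 and 9.21. Ccn2 (0.50) and Srf (0.31) were the 2 rises among 23 SRF and cytoskeleton genes, and both calls ended without the 0.5 h array 1, without the 1 h array 2 and without the 1 h array 3. Col4a1 (0.53) and Adamts1 (0.22) rose among 28 matrix genes, Chac1 (0.44) and Mthfd2 (0.42) among 19 ATF4 genes, Pmvk (0.64) among 18 sterol genes and Nolc1 (0.24) among 26 ribosome biogenesis genes. The calls of Adamts1, Chac1 and Nolc1 ended in 7, 6 and 4 of 17 settings. Lfng, a Notch glycosyltransferase, fell by 0.55 among 16 Notch genes, Fzd7 by 0.35 among 27 Wnt genes, a call that ended in 6 settings, and Hoxa3 (-0.53), Hoxb2 (-0.31) and Hoxd3 (-0.29) among 37 Hox genes. Of the Hox calls, 1 was left without the 0.5 h array 2 and 1 without the 1 h array 1. By limma, 0 of 30 DNA replication genes and 0 of 27 mitosis genes passed, where 5 and 3 had an unadjusted p under 0.05. Without the 1 h array 1, 1 replication gene was higher, and without the 1 h array 2, 1 was lower. Of 18 interferon response genes only Irf1 passed, but the 1 h arrays differed among themselves. Usp18, an interferon-induced protease, read 8.60, 8.63 and 8.72 at 0.5 h and 8.39, 10.01 and 9.36 at 1 h, and without the 1 h array 1 the interferon list had 3 rises (Usp18 was chosen after its values were seen).

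Among the lists, zinc finger genes gave the most falls. Genes named Zfp with a number, many of which encode Krüppel-type zinc finger proteins that bind DNA, counted 317. Of these 88 were lower at 1 h (27.8%) and 3 higher, against 1.77% and 1.84% over all genes, and 270 of the 317 had a difference below 0. The median was -0.19. Of the 20 largest falls with separate arrays, 13 had such a name or the related name Zfp729b, and they lay between -0.82 and -1.18. In the step's 6 arrays the median over the list was 8.69, 8.84 and 8.82 at 0.5 h and 8.33, 8.61 and 8.58 at 1 h. The groups did not overlap, and the 1 h array 1 was the lowest. Over all genes the array medians lay between 8.23 and 8.31. The 0 h arrays had list medians of 8.82, 8.84 and 8.87, the 2 h arrays 8.49, 8.41 and 8.52, and the 8 h arrays 8.63, 8.82 and 8.67, so that the list was lowest at 1 h and 2 h.

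**Figure D4:**
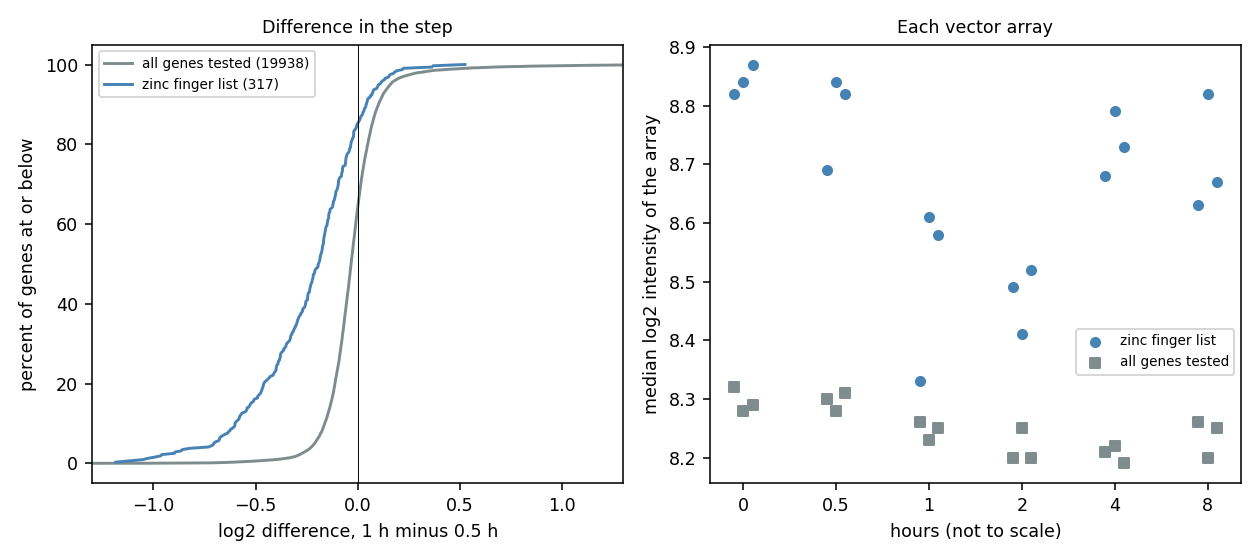
The left panel gives the cumulative percent of genes against the log2 difference between 1 h and 0.5 h for the 317 zinc finger genes and for all 19938 genes. The right panel gives the median log2 intensity of both sets on each vector array (3 per time, hours not to scale): the zinc finger medians at 1 h, 8.33 to 8.61, lie below those at 0.5 h, 8.69 to 8.84.

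Zfp763 fell the most of them. It read 8.26, 8.65 and 8.56 at 0.5 h and 6.80, 7.75 and 7.37 at 1 h, a difference of -1.18 ± 0.186 (limma adjusted p = 0.000104). Zfp418 read 7.92, 8.19 and 7.93 and then 6.60, 7.05 and 7.03 (-1.12 ± 0.125), and Zfp39 read 9.22, 9.49 and 9.44 and then 8.03, 8.52 and 8.45 (-1.05 ± 0.1). All 3 were chosen with separate groups, and in each the 1 h array 1 was the lowest. Without that array the differences were -0.93, -0.97 and -0.90, each still past the test. Zfp759, Zfp729b, Zfp551, Zfp157, Zfp455, Zfp72, Zfp563, Zfp300, Zfp128 and Zfp11 made up the rest of the 13, at -0.82 to -1.03. Zfp551 was even across its arrays, 8.64, 8.72 and 8.69 at 0.5 h against 7.64, 7.72 and 7.71 at 1 h. From 0 h to 0.5 h these 13 genes had differed by -0.36 to -0.02, none past the test. The member that rose the most, Zfp330, rose by 0.52, with the 1 h arrays at 10.37, 10.88 and 10.89, and its call ended in 4 settings.

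The number of zinc finger calls moved with the arrays and the fit. There were 56 falls without the 1 h array 1 (17.7% of the list, with 1.01% of all genes lower), 49 in a fit of the 6 arrays alone (15.5% and 0.672%) and 63 with centred arrays (19.9% and 0.898%). The median of the list lay between -0.22 and -0.14 in 17 alternative settings. The number 1 arrays of both groups had narrower spreads of values than the others, with interquartile ranges of 3.07 and 2.97 against 3.24 to 3.37, and the fit without both of them called 56 falls. Zinc finger genes resemble each other in sequence, and whether their probes bind more than 1 transcript was not tested.

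**Figure D5:**
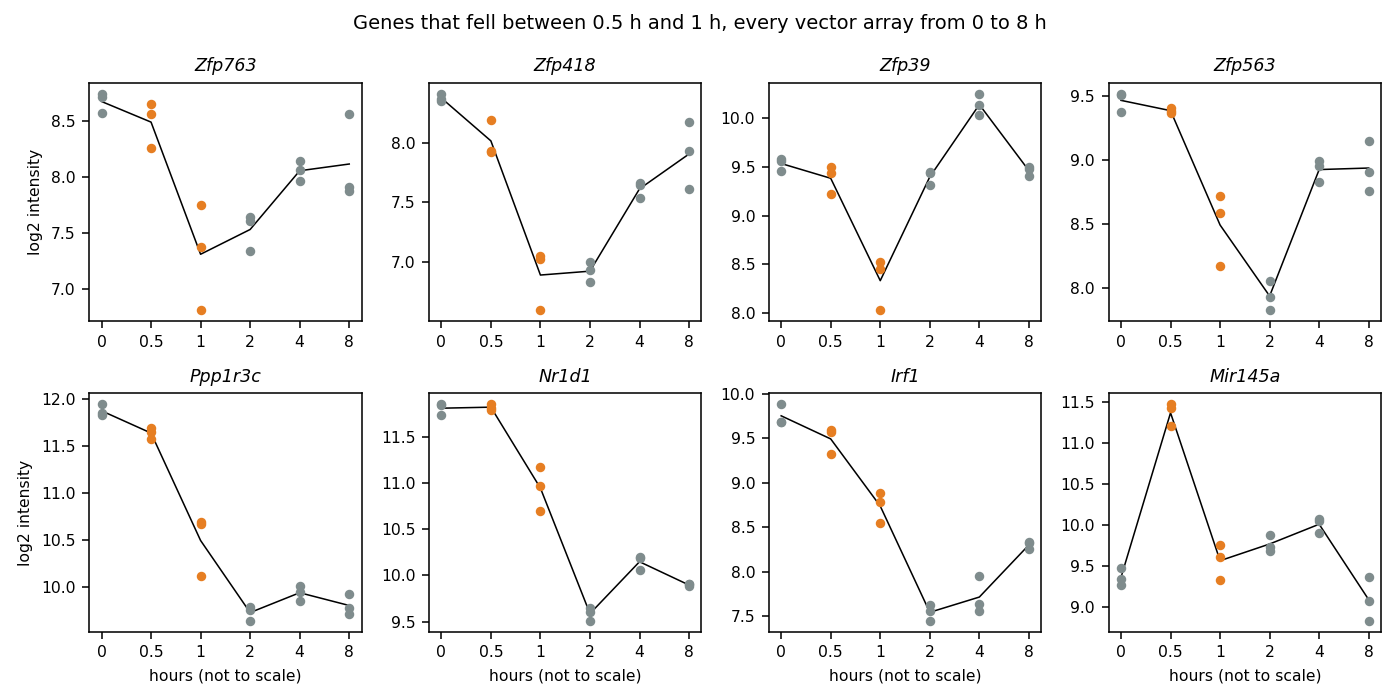
Each panel shows 1 gene that fell between 0.5 h and 1 h, with every vector array from 0 h to 8 h as a point (log2 intensity; orange for 0.5 h and 1 h), a line through the means of 3 arrays, and hours spaced evenly rather than to scale. Ppp1r3c, Nr1d1 and Irf1 go on falling to 2 h, Zfp39 returns to a mean of 9.40 at 2 h, and Mir145a falls back to near its 0 h mean of 9.36.

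Beyond the zinc finger genes, Ppp1r3c was the protein-coding gene that fell the most. It encodes PTG, which brings a phosphatase to glycogen and favours glycogen synthesis. It read 11.65, 11.68 and 11.57 at 0.5 h and 10.12, 10.69 and 10.67 at 1 h (-1.14 ± 0.109), and its mean at 2 h was 9.73. Zswim3, which encodes a protein with a SWIM zinc finger, fell by 0.78 from 8.60, 8.81 and 8.65 to 7.80, 7.92 and 7.99. Without the 1 h array 1 the difference of Ppp1r3c was -0.95.

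MicroRNA genes and small nucleolar RNAs were measured through probe sets in their hairpins or genes, so the values describe precursor or primary transcripts more than the mature forms. Of 300 microRNA probe sets, 4 of them host transcripts, 5 were higher (1.67%) and 11 lower (3.67%), with a median of -0.03, where over all genes 1.84% were higher, 1.77% were lower and the median was also -0.03. The share of rises was thus near that of all genes, and the rises below are described gene by gene. Of the host transcripts 2 passed the test. Among all 352 genes that fell, 9 are annotated as microRNAs, against the 11 falls of this list. The falls of the list numbered 5 without the 0.5 h array 1 and 5 without the 1 h array 1. Mir145a fell the most of all genes, from 11.42, 11.21 and 11.47 to 9.33, 9.75 and 9.61 (-1.80 ± 0.115, a 3.49-fold difference; limma adjusted p = 2.28e-11). Its neighbour in the same cluster, Mir143, fell from 9.34, 9.38 and 9.41 to 8.29, 8.25 and 8.29 (-1.10 ± 0.0863). Both had been raised at 0.5 h, by 2.01 and 1.18 over 0 h, and the 1 h means lay close to the 0 h means of 9.36 and 8.20. Mir199b showed the opposite course. It read 7.89, 7.91 and 7.91 at 0.5 h and 8.76, 9.24 and 9.04 at 1 h (1.11 ± 0.123), after a fall of 2.19 from 0 h to 0.5 h. Mir29a rose by 0.81 ± 0.201 and Mir30c-2 by 0.62 ± 0.0972, and the members of the miR-181 family Mir181b-1 and Mir181b-2 fell by 0.93 and 0.54. Mir181b-1 read 9.18, 8.84 and 8.80 and then 7.82, 8.44 and 7.76, and its call was lost without both number 1 arrays.
Mature sequences of 5 of these genes are given from RefSeq (GRCm38.p6) to tell the families apart, with the seed, bases 2 to 8, in capitals; Mir181b-1 and Mir181b-2 encode the same miR-181b-5p, so they share 1 line.
mmu-miR-199b-3p: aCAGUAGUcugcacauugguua
mmu-miR-29a-3p: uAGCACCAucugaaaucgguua
mmu-miR-30c-5p: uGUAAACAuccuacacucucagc
mmu-miR-181b-5p: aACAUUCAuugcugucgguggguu
These 4 seeds differ from each other. Of the 10 small nucleolar RNA genes past the test, 7 rose and 3 fell, where 53 were tested; over all genes 1.84% rose and 1.77% fell. Snord14e fell from 11.87, 11.70 and 11.68 to 10.43, 10.78 and 10.78 (-1.08 ± 0.103) after a gain of 2.35 by 0.5 h. Snord42a rose from 6.68, 6.70 and 6.69 to 7.50, 7.72 and 7.62 (0.93 ± 0.199; chosen after its values were seen).

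The genes called in the step were followed in comparisons of 2 h, 4 h and 8 h with 0 h, which use none of its arrays, although the fit's estimate of the spread is shared. Of the 366 genes that rose, 344 were higher at 2 h than at 0 h (94.0%, against 10.9% of all genes) and 4 were lower. At 4 h 317 were higher (86.6%, against 17.3%) and at 8 h 284 (77.6%, against 24.2%), and their median difference from 0 h went from 1.26 to 1.11 and 0.75. Of the 352 genes that fell, 276 were lower at 2 h than at 0 h (78.4%, against 17.5%) and 18 were higher, at 4 h 193 were lower (54.8%, against 22.7%) and at 8 h 172 (48.9%, against 21.9%). Their median difference from 0 h was -0.58, -0.30 and -0.20. Without the 1 h array 1, 66.3% of the falls were lower at 2 h.

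All 15 glucocorticoid targets that rose in the step were higher than 0 h at 2 h, 14 at 4 h and 13 at 8 h, and Fkbp5 and Glul were 3.38 and 3.18 above 0 h at 8 h. Of the 14 cAMP targets 14, 13 and 12 were higher. Of the 19 immediate early factors 17, 16 and 13 were higher, and their median difference went from 1.93 at 2 h to 0.80 at 8 h. Of the 8 NF-kB targets 7, 4 and 5 were higher, and 3 were below 0 h at 8 h. Of the 88 zinc finger genes that fell, 70 were lower than 0 h at 2 h (79.5%), 39 at 4 h and 44 at 8 h, while 14 were higher at 4 h. Over all genes that rose in the step the shares above 0 h were 94.0%, 86.6% and 77.6%. Over all that fell, the shares below 0 h were 78.4%, 54.8% and 48.9%. Whole lists, called or not, had 76.9% (glucocorticoid), 81.5% (cAMP), 75.9% (immediate early) and 53.6% (NF-kB) of members higher at 2 h. For the zinc finger list 55.2% were lower at 2 h. Differences between these groups in their later course were not tested.

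Markers of other cell types gave no call in the step, where 3.6% of all genes passed. At that share, lists this short could well hold 0 calls. By limma 0 of 12 fibroblast, 0 of 11 macrophage and blood, 0 of 10 endothelial, 0 of 10 epithelial and 0 of 10 muscle markers passed. At an unadjusted p under 0.05 there were 2, 1, 1, 0 and 0 of them, while 2044 of the 19938 genes (10.3%) had an unadjusted p under 0.05. The summed log2 level of the fibroblast markers was 149.1 to 149.4 on the 0.5 h arrays and 148.6 to 149.0 on the 1 h arrays, and their median level was 12.88. The median levels of the macrophage, endothelial, epithelial and muscle markers lay between 7.12 and 7.66, with 8.27 over all genes. Levels of different probe sets are not on a common scale per molecule, so these medians only describe the labelled fibroblast line.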

How the data were processed

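The authors deposited 1 table of log2 intensities for 27 arrays, processed with RMA per the submitters' processing notes; its software and version, and the genome build, were not stated there. The log base was settled from the values, which ran from 3.35 to 14.85. Of 28853 probe sets, 21789 had 1 gene symbol, 1621 several and 5443 none; the first kind was used, with the brightest probe set for the 999 genes with more than 1, which left 19938 genes. RefSeq (GRCm38.p6) served for names, promoters and microRNAs only. Detection calls were not used, and the number of arrays limits the precision.

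limma 3.58.1 in R 4.3.3 was fitted to all 27 arrays with 1 mean per group (residual degrees of freedom 18, prior 6.56), two-sided, with Benjamini-Hochberg adjustment over all genes. Each adjusted p printed is from this fit, except those given with the replicate block, and ± is the SE of this fit. The scripts were tested on simulated data with independent noise on each array. The real arrays deviated together, so that test checks the scripts and not the error rate in these data. The 38 lists held 1399 entries, 1360 measured. The members and lists were chosen with earlier results of these data known. Named were 8 genes of the series' theme, the 20 largest rises and falls with separate arrays, and per list the 3 largest members past the test with 1 against the majority; other genes were chosen after their values were seen, including those named to complete a list. Same-numbered arrays of both groups deviated together, with correlations of 0.589, 0.356 and 0.306 over genes. Numbers 2 and 3 crossed gave 0.237 and 0.259, nearly as high, and the other crossed pairs were below 0. Deviations from a group mean sum to 0 over its 3 arrays, so these correlations are not independent. The reported fit did not pair the arrays, and same numbers were paired only in the settings with a replicate block. The labels do not say what a number shares. In 17 alternative settings arrays were left out, scaled, blocked or fitted otherwise; the core CRE motif, the array scaling to 1 interquartile range, the block within the 2 groups and the fit without both number 1 arrays were added after the data were seen.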

Additional observations from a re-analysis of the deposited data

How the results depend on the processing

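In none of the 17 settings did a gene called there and in the reported fit change direction (0 genes); 224 rises and 80 falls were called in every setting. Rises numbered 300 to 434 with 1 array left out, 264 in the 6 arrays alone, 510 with quantile normalization and 61 at a 2-fold minimum, where falls numbered 9. Falls numbered 194 to 366 with 1 array left out, 179 with centred arrays, 134 in the 6 arrays alone, 444 with quantile normalization and 164 without both number 1 arrays, where 4 were at least 2-fold; with 1 array left out, 2 to 14 were at least 2-fold. Zinc finger falls numbered 56 to 101 with 1 array left out, 49 in the 6 arrays alone and 56 without both number 1 arrays. The share of falls that were lower at 2 h was 66.3% to 80.1% with 1 array left out. With the replicate block, rises numbered 366 and falls 341; with the block within the 2 groups of the step they numbered 392 and 402, and neither block moved these counts by over 1.5 times. Of the genes named in the report, Angptl4, Dusp6, Klf6 and Trib2 lost their calls with the replicate block over all groups, with the values given there. Of 91 named genes past the test, 75 kept the call in every one of the 17 settings in which they were fitted. The fit of genes above the median level held 87 of the 97 named genes. The cause of these changes was not tested.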
